A study of Mus musculus with 10 samples.

Results

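The 10 genes described here are core genes of cellular iron storage and transport, and they were chosen by name from knowledge of iron metabolism: *Fth1*, *Ftl1*, *Ncoa4*, *Tfrc*, *Slc11a1*, *Slc11a2*, *Slc40a1*, *Hmox1*, *Ireb2* and *Aco1*. All 10 were among the 55453 genes of the count table, and all 10 were among the 14481 genes that passed the filter on low counts. Microglia, the resident macrophages of the brain, had been sorted as CD45int CD11b+ cells from the hippocampus of female 3xTg mice older than 15 months. These mice carry mutated human transgenes, among them APP with the Swedish mutation and MAPT P301L, under the Thy1.2 promoter, which is active in neurons. The comparison was between PBS, the control injection, and glatiramer acetate (GA), a synthetic peptide mixture used to treat multiple sclerosis, given subcutaneously at 0.1 mg weekly for about 8 weeks, with 5 libraries per group. Every library came from a transgenic, retired breeder female, and libraries of non-transgenic mice were not analysed here.

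A cell takes up iron on transferrin through the transferrin receptor, moves it out of the endosome or lysosome through divalent metal transporters, stores it in the shell of ferritin and releases it through ferroportin. Macrophages, microglia included, also recover iron from heme that they engulf. The amounts of several of these proteins are set after transcription by a pair of iron regulatory proteins, which bind a hairpin in the messenger RNA called the iron-responsive element (IRE) when iron is scarce. Bound to a 5′ UTR the proteins block translation, and bound to the 3′ UTR of *Tfrc* they protect the messenger RNA from decay, so a count of RNA reads does not measure the first kind of control.

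The hairpins are shown because some of the storage, uptake and export genes carry them. They were found in GENCODE transcripts of GRCm38.p6 by the letters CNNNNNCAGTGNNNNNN, where N is any base, read on the transcript strand, in which the 5 bases on each side of the loop can pair and the last base of the loop is not G. Of 21877 coding genes, 0.105% held such a match in a 5′ UTR and 0.457% in a 3′ UTR. *Fth1* had its match in the 5′ UTR at chr19:9982732-9982760 on the plus strand, *Ftl1* in the 5′ UTR at chr7:45459779-45459807 on the minus strand, and *Slc40a1* in the 5′ UTR at chr1:45925465-45925493 on the minus strand. *Tfrc* had 4 matches in its 3′ UTR on the plus strand, at chr16:32631219-32631247, chr16:32631598-32631626, chr16:32631663-32631691 and chr16:32631710-32631738. The other 6 genes had no match to these letters, which says nothing of hairpins with another loop or stem. Each window below has 29 bases, and the capitals mark the loop of the hairpin.
Fth1: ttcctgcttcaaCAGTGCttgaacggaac
Ftl1: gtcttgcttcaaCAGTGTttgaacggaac
Slc40a1: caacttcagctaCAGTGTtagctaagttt
Tfrc match 1: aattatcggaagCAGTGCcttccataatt
Tfrc match 2: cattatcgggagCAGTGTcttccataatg
Tfrc match 3: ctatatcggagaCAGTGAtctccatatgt
Tfrc match 4: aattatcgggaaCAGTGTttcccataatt

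Libraries are named here by their titles: the PBS libraries are 388_1 to 388_5 and the GA libraries are 394_1, 394_2, 400_1, 400_2 and 400_3, which are also called PBS replicates 1 to 5 and GA replicates 1 to 5 in these orders. The meaning of the first number of a title is not stated, and it cannot be told apart from treatment. The labels do not say whether each library is a single mouse, so p-values measure only the spread between these libraries. Totals ran from 32332185 to 38764643 counts per library, and the 10 microglial markers, led by *Csf1r*, were detected in every library and summed to 56148 to 66325 counts per 1000000 counts of the library (CPM). Markers of other cells were low but varied: the sum of 10 neutrophil markers was 28.7 to 325 CPM with PBS and 7.68 to 120 CPM with GA, and that of 9 border macrophage markers was 48.3 to 256 CPM and 46.6 to 198 CPM. The 4 hemoglobin chain genes, a measure of red blood cells, summed to 11 to 71 counts per library. Genes of the mitochondrial genome took 0.180% of the counts in 388_4, 0.175% in 388_5 and 0.129% to 0.152% in the other 8 libraries.

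None of the 10 iron genes differed between GA and PBS by the test across all genes. By edgeR's quasi-likelihood test with Benjamini-Hochberg adjustment over 14481 genes, 0 of 10 had an adjusted *P* under 0.05, where the share of all genes called was 0%. DESeq2 likewise called 0 of the 10, where it called 0.0106% of all genes. At an unadjusted *P* under 0.05, 0 of 10 passed, where 5.75% of all genes did. The CPM of the groups did not separate for any of the 10, where 0.891% of all genes had groups that did not overlap. The estimate was higher with GA for 6 genes and lower for 4, with a median log2 fold change of 0.0061 against 0.00020 over all genes tested. For 9 of the 10, the 95% interval of the change lay within 1.5-fold in either direction, and the exception was *Tfrc*. In bulk RNA of sorted cells, fewer cells of a type and less RNA per cell cannot be told apart.

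**Figure D1:**
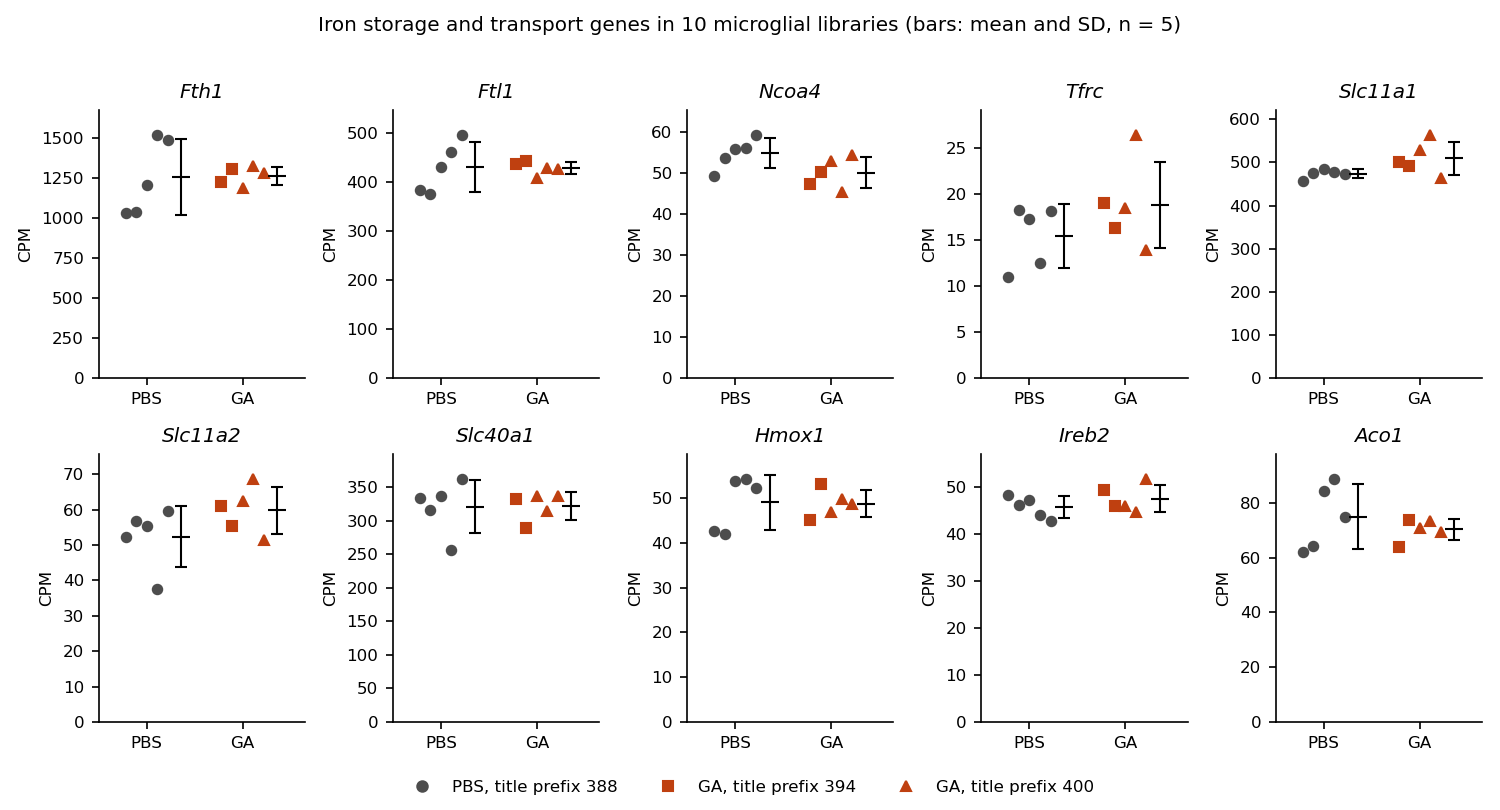
Normalized counts (CPM, linear axes from 0) of the 10 iron genes in each library, with PBS in grey and GA in orange, and the mean and SD of 5 libraries beside each group. The groups overlapped in every panel, and *Fth1* ran from 1034 to 1523 CPM with PBS and from 1190 to 1327 CPM with GA.

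Ferritin was the most abundant product of the set. *Fth1* (ENSMUSG00000024661.7, chr19:9980598-9985098, plus strand) encodes the heavy chain, which oxidizes iron as it enters the shell. Its level was 1034, 1036, 1208, 1523 and 1487 CPM in 388_1 to 388_5, and 1226, 1306, 1190, 1327 and 1282 CPM in the GA libraries in their order. The PBS libraries lay at both ends, 388_1 and 388_2 being lowest and 388_4 and 388_5 highest, and the GA libraries lay between them. The change with GA was 0.01 on the log2 scale (SE 0.10, 95% interval -0.21 to 0.23, edgeR adjusted *P* = 0.996), that is 0.862-fold to 1.18-fold. The 2 libraries with the highest *Fth1* were also those with the highest mitochondrial share given above, and the part of RNA quality in this was not tested.

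*Ftl1* (ENSMUSG00000050708.16, chr7:45457944-45459884, minus strand) encodes the light chain, which helps the iron core to form. The PBS libraries held 383, 376, 429, 461 and 496 CPM, and the GA libraries 436, 441, 407, 428 and 426 CPM. Again the lowest values, in 388_1 and 388_2, and the highest, in 388_4 and 388_5, were those of PBS libraries. As for *Fth1*, the highest libraries were those with the highest mitochondrial share, and the part of RNA quality in this was not tested. The log2 fold change was -0.0038 (SE 0.08, 95% interval -0.17 to 0.16, edgeR adjusted *P* = 0.997). Exons of *Ftl1* share 355 bases with *Gm10252* on the opposite strand and 109 bases with *Gm22133* on the same strand. Ferritin genes also have many near-identical copies in the genome, and reads that match several of them are uncertain: 14 other genes with *Fth* or *Ftl* symbols took at most 110 counts per library in all, 0.172% of the *Fth1* and *Ftl1* counts.

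The log2 SD of the ratio of the chains was 0.118 with PBS and 0.0517 with GA, against 0.271 and 0.0653 for *Fth1* and 0.171 and 0.0447 for *Ftl1*. Per library, the log2 ratio of *Ftl1* to *Fth1* CPM was -1.43, -1.46, -1.49, -1.72 and -1.58 with PBS and -1.49, -1.56, -1.55, -1.63 and -1.59 with GA. The ratio was lowest in 388_4 and all GA values fell within the range of PBS. Its means were -1.54 ± 0.12 (SD, n = 5) and -1.56 ± 0.05 (SD, n = 5), and the difference of -0.02 was not larger than the spread (two-sided exact permutation test, *P* = 0.683; the smallest *P* that 5 against 5 libraries allow is 0.00794). Both chains together took 0.168% ± 0.025 of all counts with PBS and 0.169% ± 0.0077 with GA (SD, n = 5, exact permutation *P* = 0.913).

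*Ncoa4* (ENSMUSG00000056234.15, chr14:32159865-32179855, plus strand) encodes the receptor that carries ferritin to the lysosome, where its iron is released. Its level was 49.2, 53.7, 55.9, 56.1 and 59.4 CPM with PBS and 47.4, 50.3, 53.0, 45.3 and 54.3 CPM with GA. All 5 GA libraries were below the PBS mean of 54.9 ± 3.76 CPM (SD, n = 5), and 2 of them, 394_1 and 400_2, were below every PBS library. The estimate was -0.13 (SE 0.08, 95% interval -0.30 to 0.03, edgeR adjusted *P* = 0.895), and the two-sided exact permutation test gave *P* = 0.0794. *Ncoa4* therefore did not pass either test.

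*Tfrc* (ENSMUSG00000022797.16, chr16:32608920-32632794, plus strand) encodes the transferrin receptor and carries the 4 hairpin matches of the 3′ UTR shown above. Hairpins with another loop or stem were not searched for, so these may not be all. It was the most variable of the set, with 10.96, 18.3, 17.3, 12.5 and 18.2 CPM in the PBS libraries and 19.0, 16.3, 18.5, 26.5 and 13.96 CPM in the GA libraries. The lowest library was 388_1 and the highest 400_2, 2.42 times as high, and 3 GA libraries were above every PBS library. The log2 fold change was 0.29 (SE 0.18, 95% interval -0.11 to 0.68, edgeR adjusted *P* = 0.895; exact permutation *P* = 0.214). The interval ran from 0.930-fold to 1.601-fold, the widest of the 10. Without 400_2 the log2 fold change was 0.14, and without 388_1 it was 0.19. The log2 SD of *Tfrc* over the 10 libraries was larger than that of 95.8% of the 8688 genes with a mean of at least 10 CPM.

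*Slc11a1* (ENSMUSG00000026177.11, chr1:74375195-74386062, plus strand) encodes NRAMP1, which moves divalent metals across the phagosome membrane of macrophages. PBS libraries held 456, 475, 484, 479 and 473 CPM, a coefficient of variation of 2.20%. GA libraries held 501, 491, 529, 565 and 465 CPM, and 4 of the 5 were above every PBS library while 400_3 was within the range of PBS. The change was 0.11 (SE 0.06, 95% interval -0.02 to 0.24, edgeR adjusted *P* = 0.895; exact permutation *P* = 0.0635), which did not pass. This was the smallest edgeR *P* of the 10, at 0.0979 before adjustment.

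*Slc11a2* (ENSMUSG00000023030.16, chr15:100387898-100425072, minus strand) encodes DMT1, which moves iron out of the endosome after transferrin has been taken up. Its level was 52.3, 56.9, 55.4, 37.7 and 59.6 CPM with PBS and 61.2, 55.4, 62.5, 68.8 and 51.5 CPM with GA. The low PBS value was that of 388_4, the library with the highest mitochondrial share, whose part in this was not tested. Border macrophage sums were highest in 388_4 and 400_2, at 256 and 198 CPM, the libraries with the lowest and the highest *Slc11a2*. The level exceeded that of every PBS library in 3 GA libraries. The log2 fold change was 0.19 (SE 0.12, 95% interval -0.06 to 0.44, edgeR adjusted *P* = 0.895; exact permutation *P* = 0.175), and without 388_4, which is PBS replicate 4, it was 0.095. Exons of *Slc11a2* share 402 bases with *Gm5475* on the opposite strand.

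*Slc40a1* (ENSMUSG00000025993.10, chr1:45908068-45926523, minus strand) encodes ferroportin, the exporter of iron from the cell. It was measured at 334, 316, 338, 257 and 363 CPM with PBS and 333, 289, 337, 315 and 337 CPM with GA. The lowest library was again 388_4 and the highest 388_5, both of PBS. The estimate was 0.0028 (SE 0.09, 95% interval -0.18 to 0.19, edgeR adjusted *P* = 0.997). Of all genes tested, 98.6% had a larger change in size than *Slc40a1*.

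To compare the RNA of the exporter with that of the uptake receptor, the log2 ratio of *Slc40a1* to *Tfrc* CPM was taken. It does not measure export or uptake, because control of *Slc40a1* translation is not seen in RNA. The ratio was 4.92, 4.10, 4.28, 4.35 and 4.31 with PBS and 4.12, 4.14, 4.18, 3.57 and 4.58 with GA. The library 388_1 was highest and 400_2 lowest, and the other 8 ran from 4.10 to 4.58. Means were 4.39 ± 0.31 with PBS and 4.12 ± 0.36 with GA (SD, n = 5), and the difference of -0.27 did not pass (two-sided exact permutation test, *P* = 0.278). The call depended on 1 library: without 400_3 the difference was -0.39 (exact permutation *P* = 0.0476), and without 400_2 it was -0.13 (exact permutation *P* = 0.540).

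*Hmox1* (ENSMUSG00000005413.8, chr8:75093621-75100589, plus strand) encodes heme oxygenase-1, which opens heme and frees its iron. Its level was 42.6, 42.1, 53.9, 54.4 and 52.3 CPM with PBS and 45.2, 53.3, 47.0, 49.9 and 48.6 CPM with GA. The PBS libraries lay in a low pair and a high set of 3, and the GA libraries lay between their ends. The log2 fold change was -0.0072 (SE 0.09, 95% interval -0.20 to 0.19, edgeR adjusted *P* = 0.996). The 4 libraries with the highest *Hmox1*, 388_3, 388_4, 388_5 and 394_2, were those with the highest neutrophil sums, 325, 205, 267 and 120 CPM against 7.68 to 112 CPM in the other 6, and also those with the highest sums of 8 monocyte markers, 83.1, 93.7, 58.1 and 53.0 CPM against 37.4 to 49.9 CPM. The 3 highest for *Hmox1*, 388_4, 388_3 and 394_2, also had the highest sums of 13 immediate early genes, led by *Jun*, at 1106, 938 and 1287 CPM. These sums were 660 to 863 CPM in the remaining libraries, with 388_5 at 664 CPM. The part of neutrophils, monocytes or an immediate early response in this was not tested.

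*Aco1* and *Ireb2* encode the iron regulatory proteins. *Aco1* (ENSMUSG00000028405.9, chr4:40143081-40198338, plus strand), whose product is an aconitase when it holds an iron-sulfur cluster and binds IREs when it does not, was at 62.2, 64.2, 84.5, 88.9 and 74.7 CPM with PBS and 64.1, 73.9, 70.7, 73.4 and 69.5 CPM with GA. Its highest values were in 388_4 and 388_3 and its lowest in 388_1, all PBS libraries. The 4 libraries with the highest *Aco1*, 388_3, 388_4, 388_5 and 394_2, were the same as for *Hmox1* and for the neutrophil and monocyte sums, and their order by *Aco1* was that by monocyte sum. The change was -0.09 (SE 0.10, 95% interval -0.30 to 0.12, edgeR adjusted *P* = 0.945). It was -0.02 without 388_4, -0.04 without 388_3, -0.06 without 394_1, -0.14 without 388_2 and -0.15 without 388_1.

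*Ireb2* (ENSMUSG00000032293.8, chr9:54863789-54912530, plus strand), whose product is degraded when iron is plentiful, varied least. Levels were 48.4, 46.3, 47.2, 44.1 and 42.7 CPM with PBS and 49.4, 46.1, 46.0, 44.7 and 51.8 CPM with GA. The GA libraries 394_1 and 400_3 were above every PBS library, and the other GA libraries were within the PBS range. The estimate was 0.06 (SE 0.07, 95% interval -0.10 to 0.21, edgeR adjusted *P* = 0.951), 0.02 without 400_3 and 0.04 without 388_5. The log2 SD over the 10 libraries was larger than that of 5.56% of genes with a mean of at least 10 CPM.

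**Figure D2:**
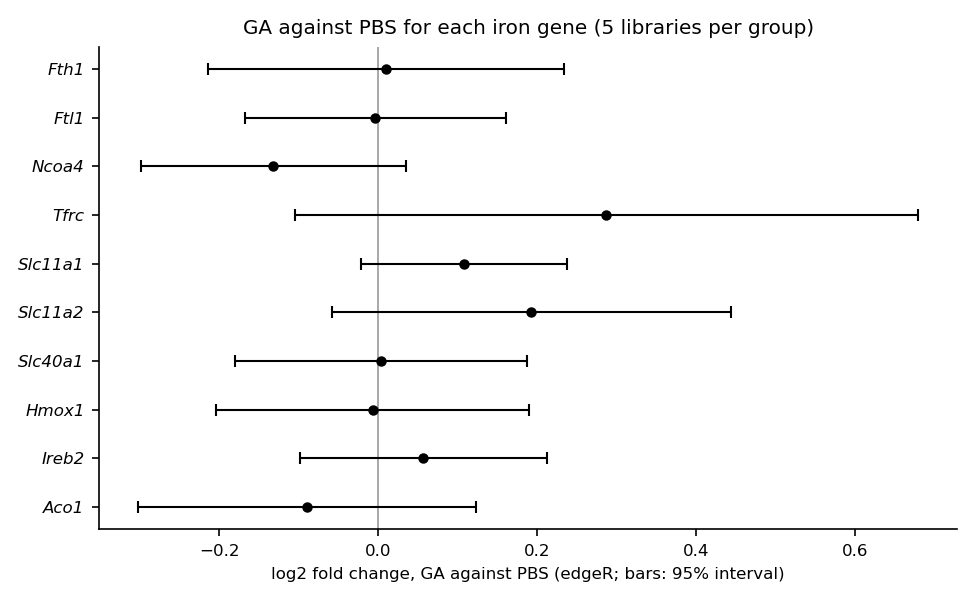
Log2 fold change of GA against PBS for the 10 iron genes by edgeR, with 95% intervals, from 5 libraries per group. Every interval includes 0, and that of *Tfrc*, from -0.11 to 0.68, is the widest.

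The GA libraries carry 394 or 400 as the first number of their title, and these were compared with each other. No iron gene differed: 0 of 10 had an unadjusted *P* under 0.05, where 5.48% of all genes did, and the smallest was 0.476 for *Slc11a1* (edgeR adjusted *P* = 0.9996). By adjusted *P* under 0.05 the count was 0 of 10, where it was 0.0138% of all genes. The changes of 400 against 394 ran from -0.06 for *Ftl1* to 0.15 for *Tfrc* on the log2 scale.

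Levels can be compared between genes only per length, here as transcripts per 1000000 transcripts (TPM) computed from the summed length of all annotated exons. *Fth1* was first at 1230 ± 131 TPM and *Ftl1* second at 1082 ± 67.6 TPM (SD, n = 10), and their ranges over libraries overlapped although *Fth1* was the higher in all 10. *Slc11a1* followed at 450 ± 31.0 TPM, and its range did not overlap that of either neighbour. *Slc40a1*, at 121 ± 11.1 TPM, and *Hmox1*, at 94.7 ± 8.24 TPM, overlapped, *Slc40a1* being the higher in 9 libraries. *Aco1* was at 54.7 ± 6.09 TPM, and its range overlapped that of neither neighbour with this length.

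The lower end of the order was closer together. *Slc11a2* was at 30.0 ± 4.47 TPM, *Ncoa4* at 19.0 ± 1.37 TPM, *Ireb2* at 16.7 ± 1.26 TPM and *Tfrc* at 9.39 ± 2.34 TPM (SD, n = 10). Each of these overlapped the next in range, the earlier being the higher in 9, 9 and 10 libraries. The order was the same with the length of the principal transcript, an alternative chosen after seeing the data. By that length *Fth1* was at 2042 TPM and *Ftl1* at 1070 TPM, with ranges that did not overlap, so the gap between the chains of ferritin depended on the length used. *Aco1* and *Slc11a2* were at 45.86 and 44.98 TPM by that length, with ranges that overlapped. *Slc40a1* and *Hmox1* were at 231 and 75.5 TPM by that length, and neither their ranges nor those of *Ncoa4* and *Ireb2* or of *Ireb2* and *Tfrc* overlapped. Of the transporters, the phagosomal *Slc11a1* was far above the endosomal *Slc11a2*, with means of 450 and 30.0 TPM, and the exporter *Slc40a1* was above the receptor *Tfrc* in each library.

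**Figure D3:**
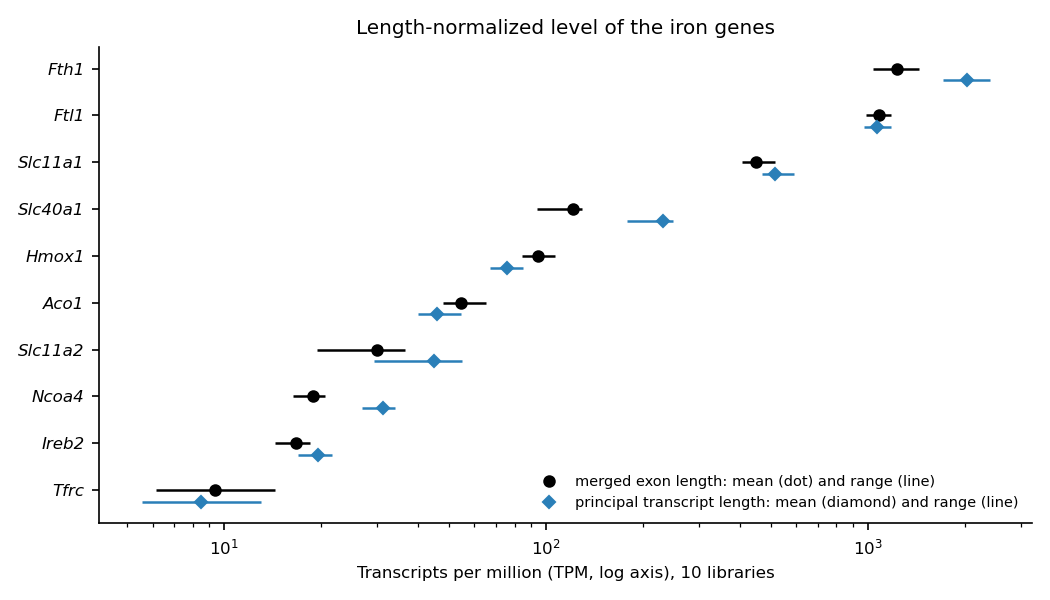
Length-normalized level (TPM, log axis) of the 10 iron genes over the 10 libraries, as the mean and the range, with the summed exon length in black and the principal transcript length in blue. The order runs from *Fth1* to *Tfrc* with either length, at 1230 and 9.39 TPM with the first and at 2042 and 8.50 TPM with the second. The ranges of *Ncoa4* and *Ireb2* overlap with the first length and not with the second.

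The spread between libraries is described for each group, without a test. The log2 SD was larger with PBS for 7 of 10 iron genes, a share close to the 69.2% of all genes tested. For *Tfrc*, which is among these 7, it was 0.343 with PBS and 0.340 with GA. For *Fth1* the coefficient of variation was 18.8% with PBS and 4.49% with GA, and for *Ftl1* it was 11.9% and 3.07%. For *Slc11a1* it was the reverse, at 2.20% and 7.47%. The library 388_4 was highest for *Fth1*, *Hmox1* and *Aco1* and lowest for *Slc11a2* and *Slc40a1*, and 388_1 was lowest for *Fth1*, *Tfrc*, *Slc11a1* and *Aco1*. Without 388_4 the SD was larger with PBS for 6 of 10 iron genes and 59.7% of all genes.

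Some pairs of iron genes varied together across the 10 libraries, and with 5 libraries in each, r was not compared between the treatments. Of 45 pairs, 5 had an adjusted *P* under 0.05 for Pearson's r of log2 CPM and 2 for Spearman's rho (permutation tests, 100000 resamples, Benjamini-Hochberg adjustment over 45 pairs). The smallest r of these 5 pairs was 0.80, and as a description 1.58% of all pairs of the 8688 genes with a mean of at least 10 CPM had an r of at least that size, in either direction, against 11.1% of the 45. With 5 pairs that share genes, nothing particular to iron genes is read from this. The ferritin chains had r = 0.94 (permutation *P* = 0.00041, adjusted *P* = 0.00967) and rho = 0.84 (permutation *P* = 0.00362, adjusted *P* = 0.0543), and r was again 0.94 without the 2 libraries farthest from the median of *Fth1*, 388_1 and 388_4. Both chains were highest in 388_4 and 388_5, which also had the highest mitochondrial share, and the part of RNA quality in this pair was not tested. *Hmox1* and *Aco1* had r = 0.90 (permutation *P* = 0.00043, adjusted *P* = 0.00967) and rho = 0.94 (permutation *P* = 0.00026, adjusted *P* = 0.00832), and r = 0.88 without 388_1 and 388_2. This was the only pair of the 45 to pass by both measures. The 4 libraries highest for both genes were those with the highest neutrophil and monocyte sums given above. The part of these cells, or of the immediate early genes given for *Hmox1*, in this pair was not tested.

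*Hmox1* was next related to ferritin, by r and not by rho. Its r was 0.83 with *Fth1* (permutation *P* = 0.00326, adjusted *P* = 0.0460; rho = 0.75, permutation *P* = 0.0173, adjusted *P* = 0.130), and 0.72 without 388_1 and 388_4. With *Ftl1* it was 0.80 (permutation *P* = 0.0053, adjusted *P* = 0.0477; rho = 0.77, permutation *P* = 0.0127, adjusted *P* = 0.130), and 0.78 without 388_2 and 388_5. On raw CPM neither pair passed (r = 0.78 and 0.77, permutation adjusted *P* = 0.0876 for each). The neutrophil, monocyte and immediate early sums given above for *Hmox1* apply to these pairs too.

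Of the 3 pairs of uptake genes, 1 passed by r and another by rho. *Tfrc* and *Slc11a1* had r = 0.81 (permutation *P* = 0.00409, adjusted *P* = 0.0460; rho = 0.76, permutation *P* = 0.0146, adjusted *P* = 0.130), but r was 0.47 without 388_1 and 400_2, so this relation rests on those libraries, and on raw CPM it did not pass (r = 0.76, permutation adjusted *P* = 0.0876). *Tfrc* and *Slc11a2*, which act in the same endosome, had rho = 0.93 (permutation *P* = 0.00037, adjusted *P* = 0.00832) and r = 0.79 (permutation *P* = 0.00946, adjusted *P* = 0.0709), with r = 0.92 without the same pair of libraries. *Slc11a1* and *Slc11a2* passed by neither (r = 0.60, permutation *P* = 0.0862, adjusted *P* = 0.385; rho = 0.71, permutation *P* = 0.028, adjusted *P* = 0.154), and r was 0.25 without 400_1 and 400_2.

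Within the title prefixes, that is after subtracting the mean of each, the r of these pairs were 0.95 for *Fth1* and *Ftl1* (exact permutation within prefixes, *P* = 0.0139), 0.94 for *Hmox1* and *Aco1* (*P* = 0.00556), 0.83 for *Fth1* and *Hmox1* (*P* = 0.0597), 0.80 for *Ftl1* and *Hmox1* (*P* = 0.0646), 0.77 for *Tfrc* and *Slc11a1* (*P* = 0.0389) and 0.73 for *Tfrc* and *Slc11a2* (*P* = 0.0285). After adjustment over 45 pairs 0 passed by that exact permutation test, which has 1440 arrangements, and 4 had an unadjusted *P* under 0.05.

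**Figure D4:**
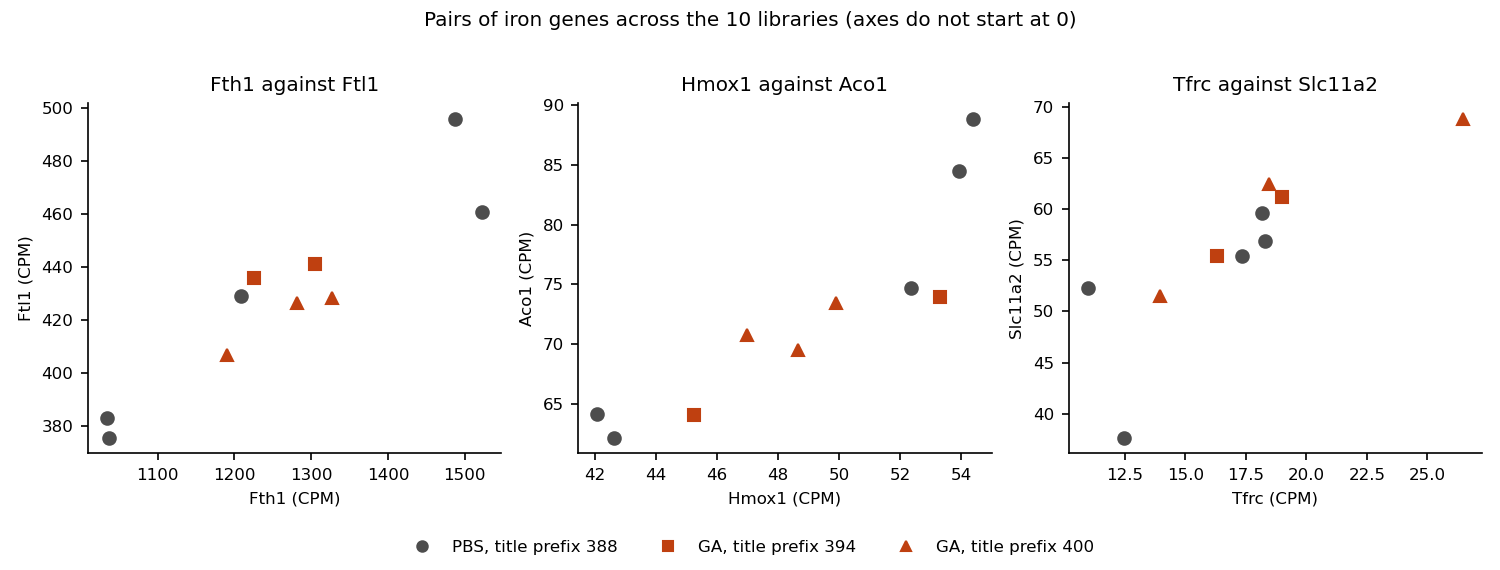
Normalized counts (CPM, linear axes that do not start at 0) of *Fth1* and *Ftl1*, *Hmox1* and *Aco1*, and *Tfrc* and *Slc11a2* in the 10 libraries, 1 point per library, with PBS in grey and GA in orange. *Fth1* and *Ftl1* rise together with r = 0.94, and PBS libraries hold both ends; *Tfrc* and *Slc11a2* are both highest in 400_2.

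As a description over the same 10 libraries, the genes most like each iron gene were sought among 8687 genes with a mean of at least 10 CPM. *Ldha* was closest to *Fth1* (r = 0.95), followed by *Ftl1* (r = 0.94), and *Stat3* was closest to *Ftl1* (r = 0.96), followed by *Fth1* (r = 0.94). *Tfrc* was closest to *Zbtb2* (r = 0.95) and *Xylt2* (r = 0.91), *Slc11a1* to *Cav2* (r = 0.88) and *Tagln2* (r = 0.86), and *Slc11a2* to *Ncdn* (r = 0.95) and *Rrad* (r = 0.94). *Slc40a1* was closest to *4833439L19Rik* (r = 0.95) and *Strap* (r = 0.95), and *Hmox1* to *Atf6* (r = 0.92) and *Trp53inp2* (r = 0.92). *Ncoa4* was closest to *Cnih1* (r = 0.90) and *Ctps2* (r = 0.89), *Ireb2* to *Rnf126* (r = 0.94) and *Dmap1* (r = 0.93), and *Aco1* to *Eif3a* (r = 0.96) and *Lmbr1l* (r = 0.95). These r are the highest of many and carry no test.

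The other genes of the pathway were taken from 8 lists with 112 genes, of which 91 were tested. By edgeR 0 had an adjusted *P* under 0.05, and 7, that is 7.69%, had an unadjusted *P* under 0.05, 3 higher and 4 lower with GA, where 5.75% of all genes did. In direction 51 were higher and 40 lower, with a median log2 fold change of 0.02 against 0.00020 over all genes tested. Adjusted *P* of the 7 genes named next was 0.847 or 0.854, so none is called changed.

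Among uptake genes and carriers, *Slc39a14*, which encodes the importer ZIP14 of zinc and of iron not bound to transferrin, was 39.6 ± 6.80 CPM with PBS and 50.2 ± 2.82 CPM with GA (SD, n = 5), a log2 fold change of 0.34 (edgeR, SE 0.11, adjusted *P* = 0.847). A single GA library, 394_1 at 46.1 CPM, was below the highest PBS library, 388_5 at 46.7 CPM. *Lcn2* encodes lipocalin-2, which binds the iron carriers of bacteria and is stored in neutrophil granules. Its level was 8.13, 1.88, 22.7, 11.1 and 21.3 CPM with PBS and 1.86, 8.05, 1.15, 0.681 and 5.01 CPM with GA, a log2 fold change of -1.96 (edgeR, SE 0.65, adjusted *P* = 0.847). The 3 libraries highest for *Lcn2* were the 3 with the highest neutrophil sums, and the part of neutrophils in its change was not tested. The gene of this list with the highest level was *Snx3*, a sorting nexin that recycles the transferrin receptor, at 307 TPM, with a log2 fold change of -0.05.

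In the export and hepcidin list, *Bmpr2*, a receptor of bone morphogenetic proteins, was 32.1 ± 6.63 CPM with PBS and 23.6 ± 1.76 CPM with GA (SD, n = 5), a log2 fold change of -0.44 (edgeR, SE 0.13, adjusted *P* = 0.847). The most abundant was *Smad7*, an inhibitor of that signal, at 57.6 TPM and a log2 fold change of 0.12, which was 0.010 without 388_4 and 0.18 without 388_5. In the storage list *Herc2*, whose product is a ubiquitin ligase of the NCOA4 protein, had a log2 fold change of -0.21 (edgeR, SE 0.07, adjusted *P* = 0.847), and *Pcbp1*, an iron chaperone that delivers iron to ferritin, was the most abundant at 572 TPM and -0.03, and omitting single libraries gave -0.046 to -0.00038.

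Of the heme genes, *Blvra*, which encodes biliverdin reductase, the step after heme oxygenase, had a log2 fold change of 0.18 (edgeR, SE 0.07, adjusted *P* = 0.854), and *Fech*, which encodes ferrochelatase, the enzyme that inserts iron into heme, one of -0.16 (edgeR, SE 0.07, adjusted *P* = 0.854), which was -0.11 without 388_4. *Srxn1*, the antioxidant sulfiredoxin, was 4.44 ± 0.637 CPM with PBS and 6.56 ± 1.66 CPM with GA (SD, n = 5), a log2 fold change of 0.56 (edgeR, SE 0.20, adjusted *P* = 0.847). By list, the genes higher and lower with GA were 5 and 6 of uptake, 3 and 3 of export, 2 and 5 of storage, 5 and 7 of heme handling, 6 and 5 of heme synthesis, 14 and 4 of iron-sulfur clusters, 6 and 3 of iron sensing and 10 and 7 of antioxidant genes, against 7250 and 7231 of all genes tested. The most abundant genes of the remaining lists were *Pgrmc1* (log2 fold change 0.11), *Tmem14c* (-0.03), *Iscu* (-0.09), *Cul1* (-0.05) and *Slc3a2* (-0.07). Omitting single libraries gave 0.065 to 0.16, -0.067 to -0.0034, -0.13 to -0.022, -0.10 to -0.030 and -0.10 to -0.026, so a single library moved each by over 1.5 times.

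**Figure D5:**
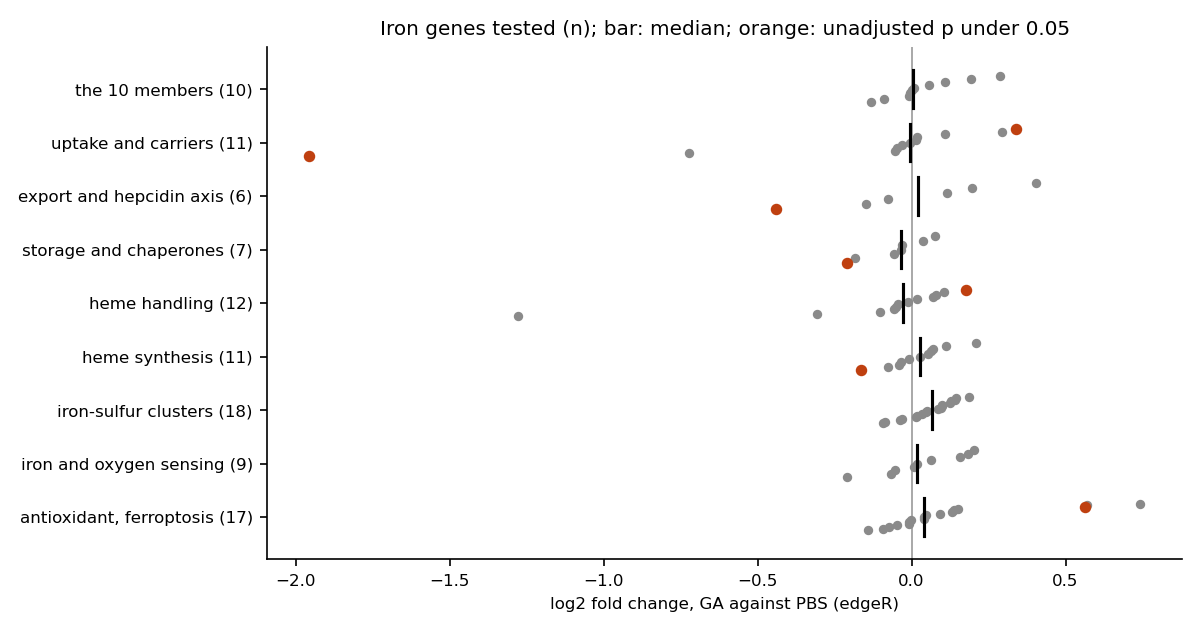
Log2 fold change of GA against PBS for each tested gene of the 10 described here and of 8 lists of other iron genes, with the median of each list as a bar and genes at an unadjusted *P* under 0.05 in orange. Medians lie between -0.03 and 0.07, and the point farthest from 0 is *Lcn2* at -1.96.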

How the data were processed

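Total RNA of sorted microglia was amplified as cDNA (SMARTer kit v4) and sequenced as NexteraXT libraries. The authors deposited 1 table of raw counts per gene, with 0 columns left without a sample. The submitters' processing notes name bcl2fastq 2.19.0, fastp 0.20.0, STAR 2.7.0f, Subread 1.6.4, featureCounts, DESeq2 and GRCm38.p6. The annotation release, the use of strand and the handling of reads with several matches are not given in the sources used here, and counts of overlapping genes or near-identical copies could be split or lost. The labels state weekly GA and the study's methods an additional injection in the first week.

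Libraries were grouped by the treatment in their labels. Genes were filtered with filterByExpr (minimum count 10), scaled by TMM and tested with edgeR 4.0.16 (glmQLFit and glmQLFTest, R 4.3.3) with no covariate. CPM are TMM-normalized. Single values were tested by two-sided exact permutation of 5 against 5 libraries (252 arrangements) on log2(CPM + 0.1). Counts of at least 403 lie behind each value of the 10 genes, and precision from counts covers counting error only. Coordinates, exon lengths and hairpins come from GENCODE annotation of GRCm38.p6. The fit was tested on simulated data. Alternatives were limma-voom (limma 3.58.1), DESeq2 1.42.0, other scalings, filters and pseudocounts, and each library or title prefix left out.

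The 10 genes and the lists were chosen with earlier results of these data known. Named from the lists were genes with an unadjusted *P* under 0.05 and the most abundant gene of each list by TPM, and for each iron gene the 2 with the highest r. One item of the mouse line's description is not reported here.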

Additional observations from a re-analysis of the deposited data

How the results depend on the processing

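Over 19 alternatives, 0 of the 10 iron genes had an adjusted *P* under 0.05 in any; the smallest was 0.648. Of 190 gene and setting combinations 163 kept their direction, and the 27 that reversed were of 4 genes with estimates near 0: *Fth1*, *Ftl1*, *Slc40a1* and *Hmox1*. Leaving out each library in turn gave log2 fold changes of -0.0531 to 0.0878 for *Fth1*, -0.0476 to 0.0585 for *Ftl1*, -0.0680 to 0.0545 for *Slc40a1*, -0.0573 to 0.0326 for *Hmox1* and -0.0905 to 0.0043 for *Snx3*. With limma-voom *Ftl1* was 0.0042 and *Hmox1* 0.0037, with no filter on low counts *Ftl1* was 0.0057 and *Hmox1* 0.0027, and with at least 10 counts in every library *Slc40a1* was -0.00094. With the GA libraries of prefix 394 alone *Ftl1* was 0.0389, *Slc40a1* -0.0428, *Hmox1* 0.0126, *Cul1* 0.0219 and the log2 ratio of *Ftl1* to *Fth1* 0.0118; with those of prefix 400 alone *Tmem14c* was 0.0168 and the ferritin share differed by -0.00036 percentage points. Leaving out each library gave differences of -0.0711 to 0.0021 in the log2 ratio of *Ftl1* to *Fth1*, -0.389 to -0.135 in that of *Slc40a1* to *Tfrc*, and -0.0050 to 0.0086 percentage points in the ferritin share. The cause of these shifts was not tested. Of the correlated pairs, 2 passed on raw CPM and 0 after subtracting the prefix means, against 5. Over all genes DESeq2 called 2, *Dcstamp* and *Gm1070*, against 0 by edgeR (833 at an unadjusted *P* under 0.05), and leaving out each library in edgeR called 0 to 1 (*Gm15920*, without GA replicate 1); these 3 were named after their values were seen. No paired analysis was possible because the numbers 1 and 2 in the titles each belong to 2 GA libraries, so a number names no single GA library. With 5 libraries per group the 95% interval for *Tfrc* reached 1.601-fold, and changes inside the intervals given are not excluded.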
